A study of Mus musculus with 15 samples.

Results

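The 14 libraries with reads were grouped by the amount of Lrig1 RNA measured in them. A library was placed in the high class at 80 CPM or more of Lrig1 (its count scaled to the total of its column) and in the low class below that. The high class held 6 of the 15 libraries of the series and the low class 8. The library S15 held under 1000 counts and none of Lrig1, and it was not used. The high class was made of 4 libraries of normal colonic epithelium (S02, S06, S09 and S14) and 2 of colonic tumors (S04 and S07). The low class was made of 4 normal libraries (S01, S05, S10 and S13) and 4 tumor libraries (S03, S08, S11 and S12).

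RNA was sequenced from epithelial cells that had been sorted by the fluorescence of an eGFP reporter of Lrig1 into an Lrig1-high and an Lrig1-low fraction. All mice carried the reporter allele, Lrig1-eGFP-IRES-CreERT2, and the APCmin mutation of Apc that gives intestinal tumors, so the normal epithelium carried both as well. Cells were released with EDTA, TryplE and dispase, and the sort kept EpCam+ cells and removed CD45+ and CD31+ cells. The labels give neither the age nor the number of the mice and tie no library to an animal. The p-values therefore cover only how these libraries vary, and part of that may be technical. The sort read the eGFP protein and the counts measure Lrig1 RNA. The class and the sort label were the same in 9 libraries and differed in 5. S07 and S09 were labelled Lrig1-low and fell in the high class, and S08, S10 and S12 were labelled Lrig1-high and fell in the low class.

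Lrig1 is a membrane protein with leucine-rich repeats and immunoglobulin domains that restrains ErbB receptors, the receptors of EGF and its relatives. In the intestine it marks stem and progenitor cells at the base of the crypts. These divide and give rise to absorptive cells and to the secretory lineages, the goblet, enteroendocrine, tuft and, in the small intestine, Paneth cells. Notch and Wnt signals hold cells in the crypt base state, and BMP signals are higher toward the lumen, where cells have left the cycle.

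The classes were chosen by Lrig1 itself (mm10 chromosome 6, 94604529 to 94700145), and its levels are therefore a description with no test. In CPM of the column total it was at 172.3 in S07, 159.7 in S04, 147.4 in S06, 133.1 in S02, 116.6 in S14 and 86.4 in S09. In the low class it was at 64.2 in S08, 53.8 in S01, 51.4 in S11, 51.1 in S03, 50.7 in S12, 48.5 in S13, 41.5 in S05 and 38.0 in S10. The members nearest to the threshold were S09 just inside, at 86.4, and S08 just outside, at 64.2. Both ends of the order were held by libraries whose class differs from their label, with S07 the highest and S10 the lowest.

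**Figure D1:**
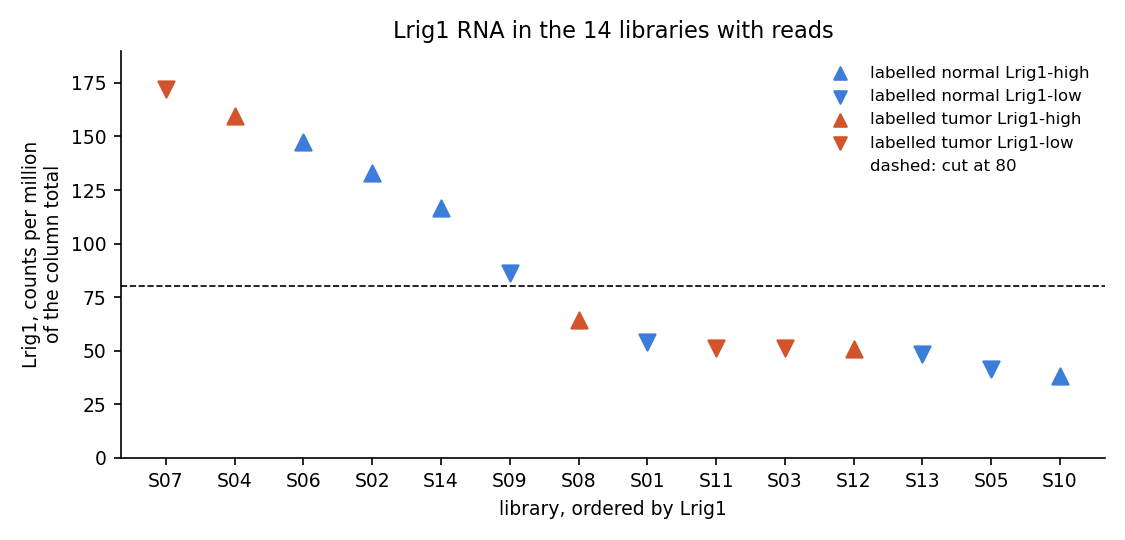
Lrig1 in CPM of the column total (y axis) in each of the 14 libraries, ordered by level, with the sort label and tissue as marker shape and colour and the threshold of 80 as a dashed line. The 6 libraries above the line lie between 86.4 and 172.3 and the 8 below it between 38.0 and 64.2.

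Depth ranged from 9508505 to 17296536 counts, and the share of mitochondrial ribosomal RNA from 12.9% to 42.8%. S12 held the highest share and the fewest genes with at least 10 counts, 10323. The share of counts in ribosomal protein genes was 2.69% ± 0.64 in the high class and 1.64% ± 0.36 in the low class (SD, n = 6 and 8; exact two-sided permutation test, p = 0.000999, adjusted p = 0.004995 over 5 library measures), with means of 2.85% and 1.60% in normal tissue and 2.38% and 1.68% in tumors. The difference did not pass in the 9 libraries with the same class and label (adjusted exact permutation p = 0.119), nor with the threshold at 100 CPM (0.0999) or 60 CPM (0.0728). Its part in the results below was not tested. Total counts, genes with at least 10 counts and both mitochondrial shares gave adjusted exact permutation p of 0.3205 to 0.7333. The label of colon was set against marker genes. Of 13 colonocyte genes 11 passed the filter on low counts, among them Slc26a3, Car4 and Krt20, and Car1 and Hoxb13 did not, and the 13 summed to 295.8 to 1307 CPM in the 14 libraries. The 10 markers of the small intestine, among them Sis, Apoa1 and the defensin Defa24, summed to 1473 to 9696 CPM. Krt20 is found in both parts of the gut.

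The classes were compared across genes to ask which RNAs go with Lrig1 RNA, with tissue as a covariate. Of 14466 genes tested besides Lrig1, 853 (5.9%) were higher and 901 (6.23%) lower in the high class in edgeR at an adjusted p under 0.05, together 12.1% of the genes. Over the 14 libraries the classes did not overlap, whatever the test, in 3.53% of genes that were higher and 1.29% that were lower, and within each tissue taken alone in 5.38% and 2.78%. The median log2 fold change of all genes was -0.04. Genes of cell division, of crypt stem cells and of Paneth cells were higher in the high class, and genes of tuft and absorptive cells and part of those of enteroendocrine cells were lower, as counted below. In bulk RNA, fewer cells of a type and less RNA per cell cannot be told apart. Because measured Lrig1 chose the classes, these p-values describe how other RNAs vary with Lrig1 RNA over these libraries, and they are no test of the sort. The number of calls was smaller with S12 than without it. Without S12, 2086 genes were higher and 1865 lower, and these held 853 and 898 of the genes called with it. Without S02, S04, S05, S06, S07 or S14 the lower genes numbered 500 to 595. The threshold mattered as well. Of the 76 named genes called, 48 lost the call with the threshold at 60 CPM, which moves S08 to the high class, 16 with it at 100 CPM, which moves S09 to the low class, and 16 with no tissue covariate. Calls lost in this way are given with each list.

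**Figure D2:**
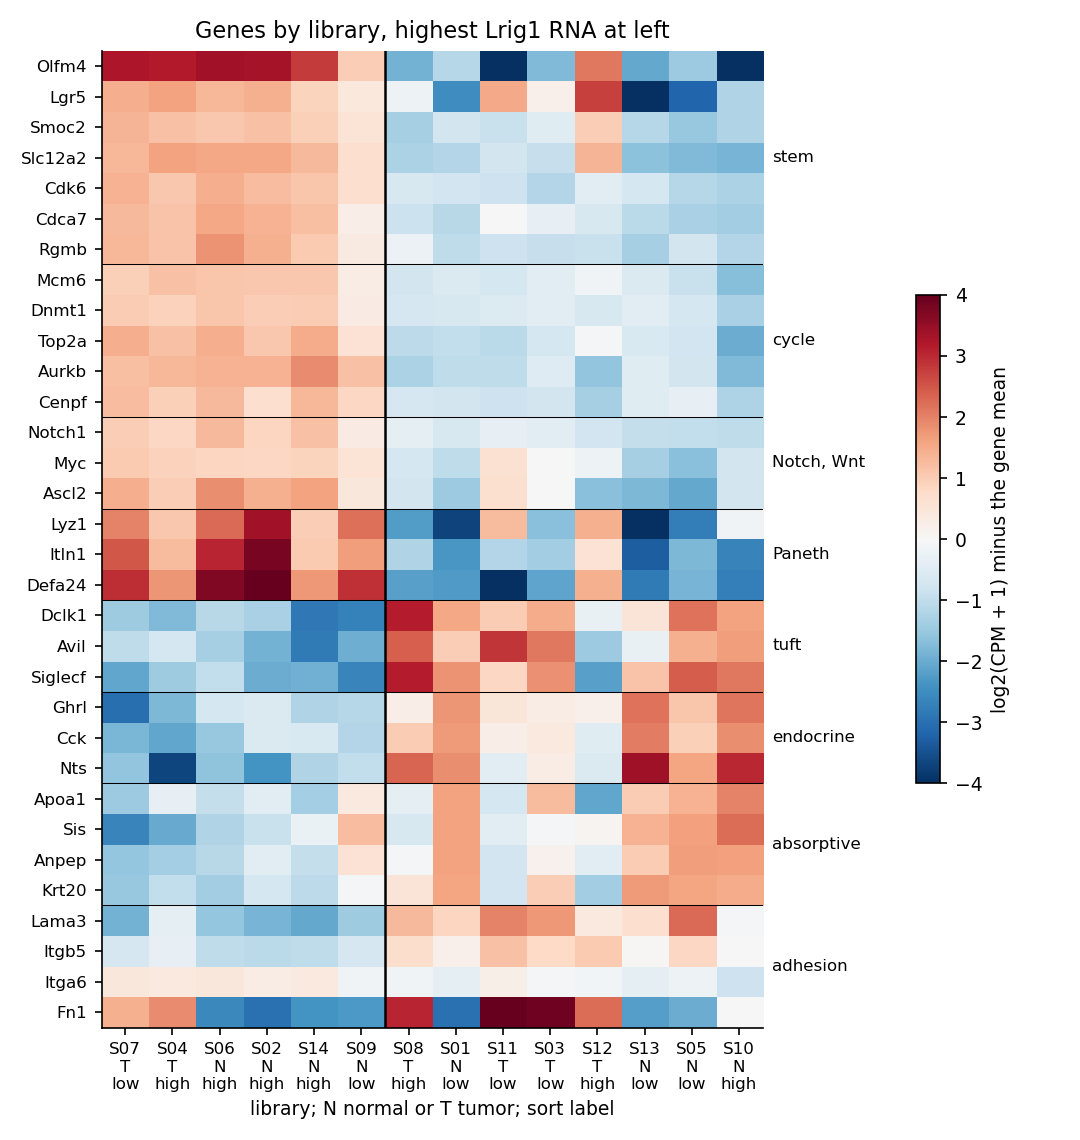
Levels of 32 genes (rows) in the 14 libraries (columns, highest Lrig1 RNA at left; N normal, T tumor; the last line is the sort label), as log2(CPM + 1) minus the mean of the gene, from -4 (blue) to 4 (red). The vertical line parts the classes, and S12 in the low class is red for Olfm4, Lgr5, Slc12a2 and Defa24 like the high class, but blue for Aurkb and Cenpf.

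Crypt base stem cell genes were higher in the high class. Of 20 genes on the list, 13 were higher and 0 lower, with a median log2 fold change of 1.66 beside -0.04 for all genes. Olfm4 (gene 380924, mm10 chromosome 14, 80000302 to 80021930) encodes a secreted glycoprotein of crypt base stem cells. It was at 916, 4298 and 4782 CPM (lowest, median and highest library) in the high class and at 7.08, 131 and 1993 CPM in the low class, a log2 fold change of 4.08 ± 0.99 (SE, adjusted p = 0.0149). The classes overlapped in Olfm4 through S09, the lowest of the high class, and S12, the highest of the low class. Cdk6 (gene 12571, mm10 chromosome 5, 3344312 to 3522225), a kinase that moves cells from G1 toward S phase, was at 36.5, 52.2 and 63.9 CPM in the high class and at 8.78, 12.6 and 16.4 CPM in the low class. Every high library lay above every low library, and its adjusted p was the smallest of the list, 4.06e-05 (2.15 ± 0.18). Rgmb, a BMP co-receptor of the repulsive guidance family, had 45.7, 85.1 and 125 CPM against 13.3, 18.4 and 29.8 CPM (2.21 ± 0.21, adjusted p = 6.3e-05). Cdca7, a Myc-responsive chromatin factor, had 90.8, 183 and 222 CPM against 28.2, 38.4 and 74.8 CPM (2.13 ± 0.22, adjusted p = 7.49e-05). Neither gene overlapped between the classes. The number of stem genes called was 5 with the threshold at 60 CPM and 8 with no tissue covariate, with 0 lower in both. Olfm4 was not called at 60 CPM (adjusted p = 0.08425), while Cdk6, Rgmb and Cdca7 stayed called in all 29 settings.

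Lgr5, the Wnt-amplifying receptor that marks cycling stem cells, did not pass the test (2.43 ± 0.85, adjusted p = 0.0768). It was at 52.8, 104 and 121 CPM in the high class and at 0.779, 25.0 and 264 CPM in the low class, where S12 held 264 and S11 113. It passed in 5 of the 29 settings, that without S12 among them, and its fold ranged from 0.64 to 3.70 over the settings. S12 also held the highest levels of the low class for Slc12a2, a chloride cotransporter of crypt cells, at 1892 CPM against 1188 to 2263 in the high class, and for Smoc2, a secreted matrix protein of stem cells, at 182 CPM against 135 to 237. Slc12a2 (2.36 ± 0.44, adjusted p = 0.00322) and Smoc2 (1.84 ± 0.31, adjusted p = 0.00194) passed with S12 included. Of 10 genes ascribed to reserve or slowly cycling stem cells, 2 were higher, Sox9 (1.07 ± 0.26, adjusted p = 0.0153) and the growth factor receptor Igf1r (1.21 ± 0.33, adjusted p = 0.0263). The transcription regulators Bmi1 (0.13 ± 0.25, adjusted p = 0.803) and Hopx (0.75 ± 0.29, adjusted p = 0.111) did not pass. The call of Igf1r was lost without S05, S06, S07, S10, S13 or S14 and with the threshold at 60 CPM (adjusted p = 0.181) or 100 CPM (0.05125), and that of Sox9 at 60 CPM (0.109) or with no tissue covariate (0.218).

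Genes of DNA replication and of mitosis were called most often. Of 32 replication genes 28 were higher and 0 lower (median log2 fold change 1.5), and of 26 mitosis genes all 26 were higher (median 1.5). Mcm6, a subunit of the helicase that opens origins of replication, was at 136, 234 and 251 CPM in the high class and at 33.3, 70.5 and 101 CPM in the low class (1.71 ± 0.19, adjusted p = 0.000235). Dnmt1, which copies DNA methylation after replication, was at 188, 297 and 321 CPM against 59.8, 95.2 and 109 CPM (1.60 ± 0.15, adjusted p = 6.3e-05), and Lig1, the ligase that joins Okazaki fragments, at 80.4, 152 and 175 CPM against 22.4, 42.8 and 60.7 CPM (1.81 ± 0.21, adjusted p = 0.000256). None of the 3 overlapped between the classes, and S09 was the lowest high library in each. The replication genes summed to 1399 to 2654 CPM in the high class and to 402 to 1001 CPM in the low class. At a threshold of 60 CPM 22 replication genes and 18 mitosis genes were higher and 0 lower.

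Aurkb, the kinase of the chromosomal passenger complex, was at 40.2, 45.1 and 66.7 CPM in the high class and at 4.30, 7.98 and 11.9 CPM in the low class (2.51 ± 0.24, adjusted p = 6.3e-05). Cenpf, a kinetochore protein, was at 237, 316 and 374 CPM against 58.5, 88.6 and 118 CPM (1.82 ± 0.17, adjusted p = 6.3e-05), and Top2a, the topoisomerase that untangles sister chromatids, at 408, 682 and 776 CPM against 69.2, 149 and 263 CPM (2.12 ± 0.24, adjusted p = 0.000237). S12 lay below every high library in each of these genes, with 5.07 CPM of Aurkb. Within the low class it was the lowest library for Cenpf but the highest for Top2a, at 263 CPM. Nusap1, a spindle protein, was at 10760 CPM in S14 and at 77.8 to 107 CPM in the other high libraries, against 8.85 to 86.0 CPM in the low class. Its fitted log2 fold change was 5.68 ± 1.74 with S14 and 1.95 (edgeR adjusted p = 0.0152) without it, and its call was lost without S01, S03, S05, S08, S10, S11 or S13. It was also not called with the library runs as a block, with continuous Lrig1, with the sort label added, at 60 CPM or without S08 and S09 (adjusted p = 0.0531 to 0.165).

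The promoters of 3 of these genes are shown because members of both lists were higher together. CCAAT boxes and the CHR element are elements of cell cycle promoters. The windows are the 250 bases before the start in RefSeq on GRCm38.p6, all 3 on the minus strand and printed 5′ to 3′ in the direction of transcription. Capitals mark the box CCAAT, which reads ATTGG where it lies on the other strand. They also mark the element TTTGAA, which likewise reads TTCAAA on the other strand, and no match overlaps another in these 3 windows.
Top2a, chr11:99024190-99024439: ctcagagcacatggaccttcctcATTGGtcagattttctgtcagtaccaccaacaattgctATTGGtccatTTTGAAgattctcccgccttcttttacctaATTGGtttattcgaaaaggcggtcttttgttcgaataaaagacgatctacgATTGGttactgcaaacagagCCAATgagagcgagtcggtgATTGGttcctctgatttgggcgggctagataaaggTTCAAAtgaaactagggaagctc
Cenpf, chr1:189688087-189688336: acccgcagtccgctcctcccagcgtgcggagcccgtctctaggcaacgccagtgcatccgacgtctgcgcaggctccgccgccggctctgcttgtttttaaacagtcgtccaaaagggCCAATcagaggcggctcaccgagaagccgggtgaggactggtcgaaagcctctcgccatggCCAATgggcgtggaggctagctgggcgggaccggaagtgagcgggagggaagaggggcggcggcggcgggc
Mcm6, chr1:128359706-128359955: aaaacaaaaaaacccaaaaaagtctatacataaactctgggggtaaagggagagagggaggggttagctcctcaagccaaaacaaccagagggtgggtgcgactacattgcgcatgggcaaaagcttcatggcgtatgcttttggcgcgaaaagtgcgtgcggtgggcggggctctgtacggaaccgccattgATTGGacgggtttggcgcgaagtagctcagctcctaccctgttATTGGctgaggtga
Top2a held CCAAT 6 times and TTTGAA 2 times, and Cenpf and Mcm6 held CCAAT 2 times each and TTTGAA 0 times. CCAAT was found in 19 of the 22 mitosis promoters in the RefSeq table (86.4%), in 16 of 27 replication promoters (59.3%) and in 36.6% of the first promoters of 11058 genes tested. TTTGAA was found in 8 of 22 mitosis promoters (36.4%), in 14.8% of replication promoters and in 10.8% of those of genes tested. These matches describe the sequence and are not sites of binding.

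Of the Notch list, 5 of 14 genes were higher and 0 lower (median log2 fold change 0.72). Notch1, the receptor, was at 91.2, 136 and 178 CPM in the high class and at 35.4, 44.2 and 57.5 CPM in the low class, with no overlap (1.68 ± 0.16, adjusted p = 6.3e-05). Lfng, a glycosyltransferase that modifies Notch receptors, was at 16.4, 23.0 and 26.1 CPM against 2.73, 8.26 and 30.0 CPM (1.36 ± 0.38, adjusted p = 0.0303). S11 lay above every high library in Lfng, and the call was lost without S01, S02, S05, S06, S07 or S14. The ligand Dll3, the receptor Notch2 and the feedback gene Nrarp were the other 3 genes. Dll3 was at 0.066, 0.727 and 2.07 CPM in the high class and at 0.369 CPM or less in the low class (adjusted p = 0.0319), and its call was lost without S01, S02, S04, S06, S07, S10, S13 or S14. Moving the threshold to 60 CPM left 1 Notch gene higher, and Lfng (adjusted p = 0.138) and Dll3 (0.116) were not called. With no tissue covariate 3 were higher and 1 lower, and with the library runs as a block 3 and 0. Lfng was also lost at 100 CPM, with continuous Lrig1, with no tissue covariate and with the sort label added (0.0505 to 0.0945), and Dll3 with no filter, with the block and in the libraries with the same class and label (0.0502 to 0.127). Notch1 stayed called in all 29 settings.

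Of 21 Wnt target genes, 4 were higher and 0 lower, and the median log2 fold change was -0.10, with 0.60 in normal tissue and -1.56 in tumors. Myc, a transcription factor of growth, was at 80.3, 102 and 114 CPM in the high class and at 16.6, 33.1 and 85.3 CPM in the low class (1.59 ± 0.24, adjusted p = 0.000857). Ascl2, the master regulator of stem cell fate in the crypt, was at 6.67, 14.4 and 19.7 CPM against 0.358, 1.71 and 7.75 CPM (2.91 ± 0.61, adjusted p = 0.00692). Axin2, a negative feedback gene, had 138, 253 and 332 CPM against 46.7, 92.8 and 439 CPM (1.51 ± 0.39, adjusted p = 0.0215), with the tumor library S11 above every high library. Cd44, a hyaluronan receptor, was the fourth (1.2 ± 0.34, adjusted p = 0.0313). Axin2 lost its call without S01, S05 or S10, and Cd44 without S01, S02, S05, S06, S13 or S14. With the threshold at 60 CPM 1 Wnt target was higher and 1 lower, with no tissue covariate 2 and 1, and at 100 CPM 4 and 3. The median turned to 0.47 with the library runs as a block. At 60 CPM Ascl2 (adjusted p = 0.0560), Axin2 (0.152) and Cd44 (0.171) were not called, and with no tissue covariate neither were Axin2 (0.302) and Cd44 (0.734). The sort label as a covariate also ended the calls of Axin2 (0.0501) and Cd44 (0.0541), and continuous Lrig1 that of Cd44 (0.0504). The secreted Wnt inhibitor Notum did not pass (-2.01 ± 1.12, adjusted p = 0.277), with 305 CPM in S11 and 18.8 CPM or less in the high class.

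Paneth cell RNAs were among those with the largest folds. Of 19 tested genes of the Paneth list, 12 were higher and 0 lower, with a median log2 fold change of 3.91. Itln1, an intestinal lectin, was at 418, 888 and 2817 CPM in the high class and at 19.6, 66.8 and 299 CPM in the low class (4.32 ± 0.67, adjusted p = 0.00103). Mptx2, a pentraxin of Paneth cells, was at 26.6, 67.5 and 186 CPM against 0.448, 3.44 and 24.5 CPM (4.13 ± 0.80, adjusted p = 0.0044). Defa24, an antimicrobial peptide, was at 508, 1156 and 4620 CPM against 2.43, 31.3 and 401 CPM (5.09 ± 1.09, adjusted p = 0.00778). These 3 genes did not overlap between the classes, and S12 was the highest low library in each. Lyz1 (gene 17110, mm10 chromosome 10, 117287795 to 117292868), the lysozyme of Paneth cells, overlapped, with 773, 1655 and 3997 CPM against 22.4, 101 and 1051 CPM (3.17 ± 0.97, adjusted p = 0.0443), and 10 of the 14 fits without 1 library did not call it (those without S01, S02, S03, S05, S06, S07, S08, S09, S13 or S14). The number of Paneth genes called fell to 4 with the threshold at 60 CPM or at 100 CPM and to 8 with no tissue covariate. At 60 CPM Defa24 (adjusted p = 0.0600), Mptx2 (0.0517) and Lyz1 (0.192) were not called, and at 100 CPM Defa24 (0.0883), Lyz1 (0.231) and the ribonuclease Ang4 (0.106) were not. Lyz1 was also lost with continuous Lrig1 (0.109), with no tissue covariate (0.0701) and without S08 and S09 (0.0669). Itln1 stayed called in all 29 settings. Reads of defensins can be split between near-identical copies, and the value of a single defensin is uncertain.

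Tuft cell genes were lower in the high class. Of 18 genes tested 14 were lower and 0 higher, with a median log2 fold change of -3.17. Dclk1 (gene 13175, mm10 chromosome 3, 55242526 to 55539068), a kinase that marks tuft cells, was at 4.93, 13.3 and 18.8 CPM in the high class and at 34.2, 121 and 375 CPM in the low class, with no overlap (-3.48 ± 0.53, adjusted p = 0.000879). Avil, an actin-binding protein of the tuft, was at 3.55, 9.94 and 18.98 CPM against 11.01, 94.5 and 234 CPM (-3.11 ± 0.53, adjusted p = 0.00197). Siglecf, a sialic acid receptor of tuft cells, was at 0.198, 0.913 and 2.78 CPM against 0.648, 25.1 and 64.4 CPM (-4.45 ± 0.79, adjusted p = 0.00242). S08 held the most Dclk1 and Siglecf and S12 the least of the low class. With the threshold at 60 CPM, which moves S08 to the high class, 0 of the 17 tuft genes then tested were called in edgeR, and Dclk1 (adjusted p = 0.367), Avil (0.104) and Siglecf (0.391) were among those lost.

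Of 21 tested genes of enteroendocrine cells 9 were lower and 1 higher, with a median log2 fold change of -1.39. The lower ones were the peptide hormone genes Sst, Gcg, Cck, Nts, Pyy, Sct and Ghrl, the transcription factor Neurod1 and the granule protein Scg2. The hormone genes Gip (-0.75 ± 0.40, adjusted p = 0.249) and Tac1 (-0.05 ± 0.35, adjusted p = 0.949) did not pass. Ghrl, which encodes ghrelin, was at 2.30, 10.9 and 16.8 CPM in the high class and at 29.6, 46.3 and 119 CPM in the low class (-2.84 ± 0.25, adjusted p = 4.46e-05). Cck, which encodes cholecystokinin, was at 13.1, 22.7 and 38.8 CPM against 41.2, 116 and 246 CPM (-2.55 ± 0.26, adjusted p = 7.49e-05), and Nts, which encodes neurotensin, at 1.27, 8.48 and 13.6 CPM against 18.2, 93.6 and 301 CPM (-3.93 ± 0.61, adjusted p = 0.00103). None of these 3 overlapped between the classes. The 1 gene that was higher, Neurog3, is the transcription factor that starts the endocrine lineage. It was at 1.39, 3.77 and 11.9 CPM against 0, 0.554 and 2.24 CPM (2.90 ± 0.79, adjusted p = 0.0257), and its call was lost without S04, S06, S07 or S10, with the library runs as a block (0.0893) and with the threshold at 60 CPM (0.123). Chga, the granule protein common to these cells, did not pass (0.52 ± 0.44, adjusted p = 0.505). At 60 CPM 1 enteroendocrine gene was lower and 0 higher, and Cck (adjusted p = 0.0936) and Nts (0.368) were not called, while Ghrl stayed called in all 29 settings.

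Of 15 goblet cell genes 2 were lower and 0 higher, with a median log2 fold change of -0.23 (-0.41 in normal tissue and 0.28 in tumors). The lower ones were the lectin Zg16 (-2.33 ± 0.70, adjusted p = 0.0424) and the fucosyltransferase Fut2 (-1.31 ± 0.40, adjusted p = 0.0449). With 1 library left out, Fut2 stayed called only without S05, S09 or S12 and Zg16 only without S01, S07, S11, S12 or S13, and S13 held 10210 CPM of Zg16. Neither was called with the threshold at 60 CPM, with the sort label added or without S08 and S09 (adjusted p = 0.0569 to 0.291), among other settings. The direction of goblet calls was not stable. Without S08 and S09 2 goblet genes were higher and 0 lower, with the library runs as a block 1 and 1, and in DESeq2 1 and 3. The main mucin Muc2 was at 410, 732 and 1553 CPM in the high class and at 172, 1406 and 2769 CPM in the low class, and did not pass (-0.90 ± 0.47, adjusted p = 0.241).

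**Figure D3:**
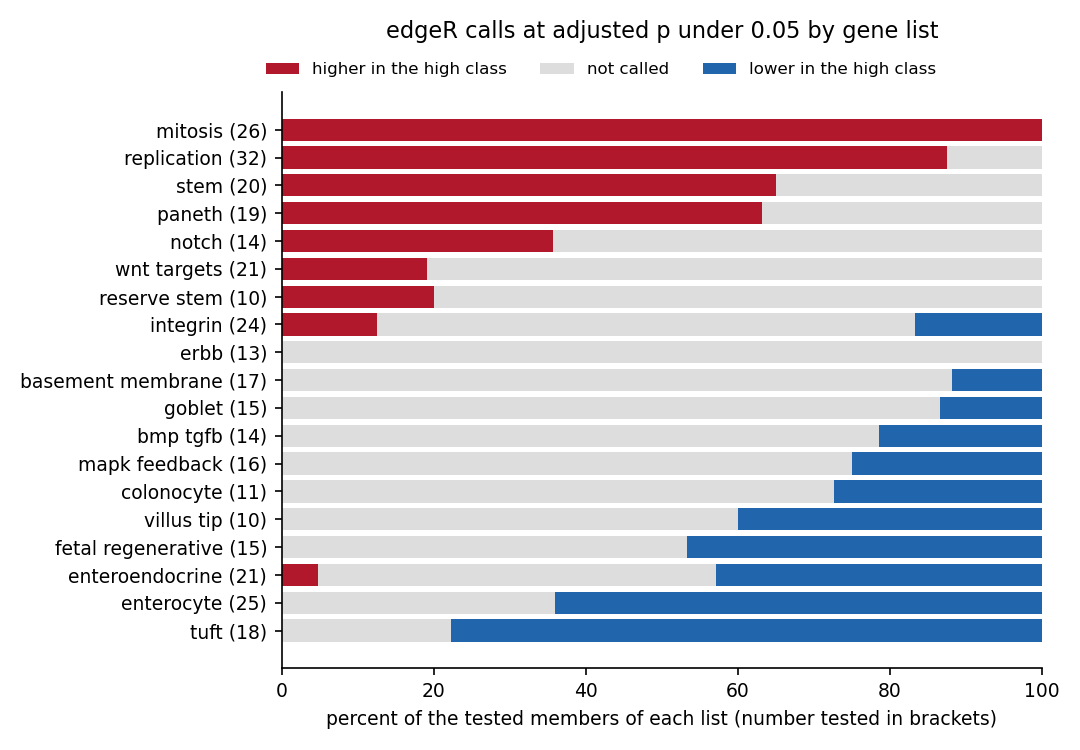
Share of the tested genes of 19 gene lists (y axis, number tested in brackets) that edgeR called higher (red) or lower (blue) in the high class at an adjusted p under 0.05 (x axis, percent). The mitosis list is called higher in all 26 members, and the tuft list has the largest share of lower calls, 14 of 18.

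Genes of absorptive enterocytes were lower in the high class. Of 25 genes 16 were lower and 0 higher, with a median log2 fold change of -1.53. Anpep, a peptidase of the brush border, was at 146, 208 and 634 CPM in the high class and at 250, 671 and 1354 CPM in the low class (-1.58 ± 0.28, adjusted p = 0.00243). Apob, the scaffold of lipoproteins, was at 409, 505 and 1066 CPM against 668, 1385 and 2132 CPM (-1.30 ± 0.25, adjusted p = 0.00402), and Mttp, which loads them with lipid, at 117, 260 and 698 CPM against 266, 771 and 1377 CPM (-1.48 ± 0.28, adjusted p = 0.00402). S09 was the highest high library in all 3, and the classes overlapped in each. Apoa1 (gene 11806, mm10 chromosome 9, 46228630 to 46230466), an apolipoprotein of lipid absorption, was at 83.1, 143 and 299 CPM against 54.1, 511 and 916 CPM, with S12 the lowest library of all, and it was close to the threshold (-1.49 ± 0.47, adjusted p = 0.0496). The fits without S01, S02, S03, S05, S06, S07, S08, S09, S10, S13 or S14 did not call Apoa1, and neither did 6 other settings (adjusted p = 0.0527 to 0.0966). With no tissue covariate 4 enterocyte genes were lower and with the threshold at 60 CPM 9, with 0 higher in both. Anpep (0.0534 in both) and Mttp (0.0624 and 0.0555) were not called in either, while Apob stayed called in all 29 settings.

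Markers that absorptive cells gain as they age gave a like picture at smaller counts. Of 10 villus tip genes 4 were lower (median -1.04), among them Krt20, a keratin of differentiated cells, at 81.4, 115 and 221 CPM against 87.4, 557 and 766 CPM (-1.92 ± 0.36, adjusted p = 0.00346), and Nt5e, an ectonucleotidase, at 1.59, 2.24 and 3.16 CPM against 2.48, 9.35 and 18.1 CPM (-2.12 ± 0.42, adjusted p = 0.0052). Of 11 colonocyte genes 3 were lower (median -1.45), Krt20, the chloride exchanger Slc26a3 (-1.45 ± 0.32, adjusted p = 0.00973) and Slc37a2 (adjusted p = 0.0375), a sugar phosphate transporter at 0.793 CPM or less in the high class, whose call was lost without S02, S03, S04, S06, S07, S10, S13 or S14. At 60 CPM 0 colonocyte genes were called in edgeR, with Krt20 at an adjusted p of 0.0907, Slc26a3 at 0.109 and Slc37a2 at 0.489, and Slc26a3 was also lost with no tissue covariate (0.0766). Slc37a2 was lost as well with no filter, with the library runs as a block and in the libraries with the same class and label (0.0550 to 0.0797). Of the 10 small intestine markers 5 were lower and 2 higher. The lower ones were Sis, Apoa1, Apoa4, Alpi and Rbp2, products of absorptive cells, and the higher ones were Lyz1 and Defa24, products of Paneth cells. Sis, the disaccharidase sucrase-isomaltase, was at 101, 311 and 1501 CPM against 413, 1181 and 3032 CPM (-1.85 ± 0.36, adjusted p = 0.00442). With no tissue covariate 1 of the 10 was lower and 1 higher, and Sis (adjusted p = 0.1425) and Rbp2 (0.0670) were not called. Thresholds of 60 CPM and of 100 CPM each gave 3 lower and 0 higher, and Alpi was not called at 60 CPM (0.146).

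**Figure D4:**
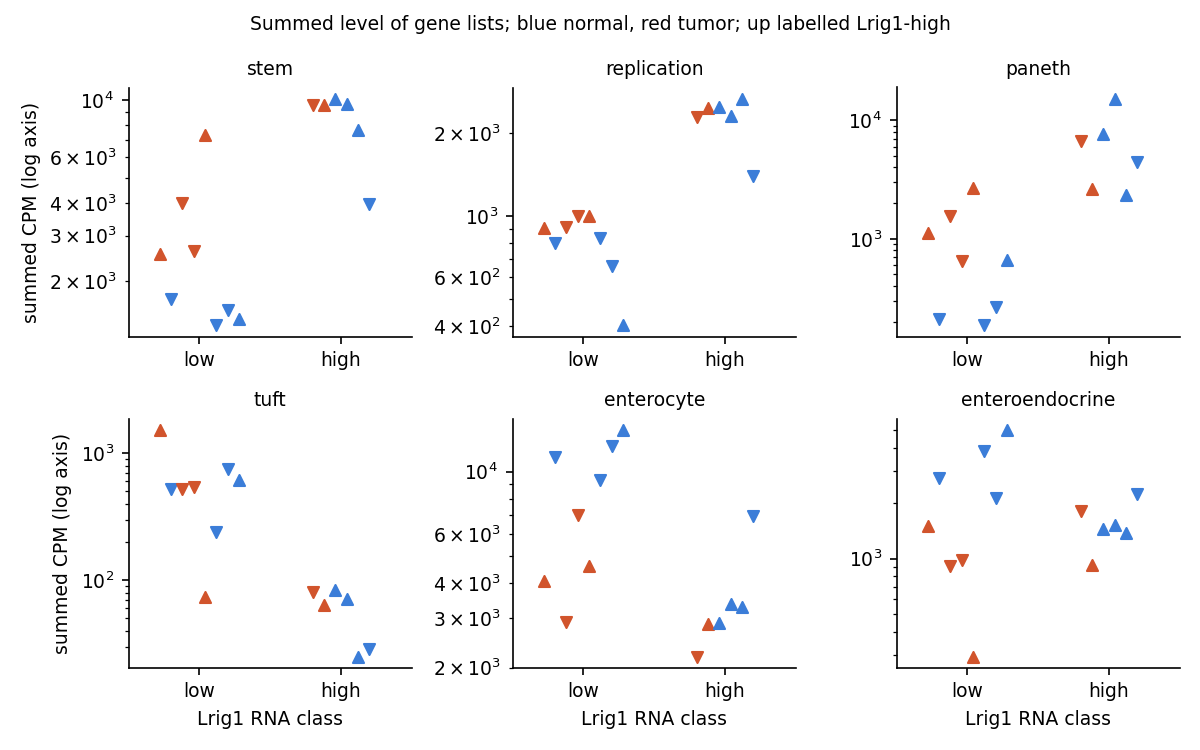
Summed CPM (log axis) of 6 gene lists in the libraries of each class (x axis), with 1 point per library, blue for normal and red for tumor tissue, and triangles pointing up for libraries labelled Lrig1-high. The replication sums do not overlap between the classes, at 402 to 1001 and 1399 to 2654 CPM, while the stem sums do through S12 at 7346 and S09 at 3959 CPM.

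Of 13 tested genes of the ErbB receptors, their ligands and the LRIG family, 0 were called in edgeR. With the threshold at 100 CPM, and also without S08 and S09, 1 was lower, and DESeq2 called 1 higher and 1 lower. Egfr was at 39.4, 52.5 and 56.7 CPM in the high class and at 2.59, 28.2 and 44.2 CPM in the low class (0.81 ± 0.35, adjusted p = 0.153). S12 held the 2.59 CPM, and Egfr passed in 3 of the 29 settings, that without S12 among them. Erbb2 was at 114, 151 and 178 CPM against 113, 175 and 219 CPM (-0.27 ± 0.11, adjusted p = 0.142). Erbb3 was at 226, 261 and 301 CPM against 141, 302 and 9184 CPM (-1.74 ± 0.88, adjusted p = 0.224), where S13 alone held the 9184. The relatives of Lrig1 did not pass either, with Lrig2 at -0.33 ± 0.25 (adjusted p = 0.445) and Lrig3 at 0.05 ± 0.23 (adjusted p = 0.928).

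Feedback genes of the MAPK pathway, which ErbB receptors activate, were lower in 4 of 16 cases and higher in 0 (median log2 fold change -0.55). Errfi1, an inhibitor of ErbB receptor kinases, was at 12.9, 17.2 and 25.9 CPM in the high class and at 15, 36.0 and 66.7 CPM in the low class (-0.89 ± 0.24, adjusted p = 0.0262). The phosphatases Dusp5 (-1.06 ± 0.29, adjusted p = 0.0283) and Dusp6 (-0.94 ± 0.28, adjusted p = 0.0405) and the Ras pathway inhibitor Spred3 (adjusted p = 0.042) were the others. Errfi1 lost its call without S02, S04, S06, S07, S10, S13 or S14, Dusp5 without S02, S05, S06, S07, S10, S13 or S14, and Dusp6 was called in 3 of the 14 such fits. With the threshold at 60 CPM 0 of the 16 were called in edgeR, with Errfi1 at an adjusted p of 0.0840, Dusp5 at 0.483 and Dusp6 at 0.113. With no tissue covariate or with the library runs as a block 2 were lower, without Dusp5 (0.05001 and 0.0682) and Dusp6 (0.146 and 0.102). Of 14 BMP and TGF-beta genes 3 were lower and 0 higher (median -0.46). Smad7, an inhibitor induced by both pathways, was at 22.5, 26.5 and 28.7 CPM in the high class and at 38.5, 74.0 and 134 CPM in the low class, with no overlap (-1.27 ± 0.21, adjusted p = 0.00159). Id3, a target of BMP signals, was at 11.9, 15.2 and 17.5 CPM against 21.2, 27.8 and 57.8 CPM, also with no overlap (-1.01 ± 0.22, adjusted p = 0.00794). Smad6 was the third (-1.21 ± 0.36, adjusted p = 0.0412), and its call was lost without S01, S03, S04, S05, S06, S07, S09, S13 or S14. At 60 CPM Id3 (adjusted p = 0.0907) and Smad6 (0.125) were not called, and Smad6 was also lost at 100 CPM, with no filter, with the block and without S08 and S09 (0.0531 to 0.0801). With no tissue covariate 5 BMP and TGF-beta genes were lower. Smad7 stayed called in all 29 settings.

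The title of the series names interactions with the extracellular matrix, and genes of matrix and adhesion were examined for that reason. Of 17 basement membrane genes 2 were lower and 0 higher (median log2 fold change -0.67), beside 6.23% and 5.9% of all genes tested. Lama3 (gene 16774, mm10 chromosome 18, 12334024 to 12583013), the alpha chain of laminin 332, was at 2.39, 3.34 and 9.61 CPM in the high class and at 12.6, 29.1 and 66.3 CPM in the low class, with no overlap (-2.98 ± 0.43, adjusted p = 0.000689). Agrn, the heparan sulfate proteoglycan agrin, was at 63.0, 77.7 and 98.5 CPM against 104, 121 and 159 CPM, again with no overlap (-0.71 ± 0.14, adjusted p = 0.00376). Of 24 integrin and adhesion genes 3 were higher and 4 lower (median -0.18), beside the same 5.9% and 6.23% of all genes. Itgb5, a beta chain that pairs with alpha v, was at 8.39, 10.2 and 14.9 CPM against 19.1, 32.5 and 44.3 CPM (-1.40 ± 0.19, adjusted p = 0.000457), and Itga3, a laminin receptor chain, at 69.97, 79.1 and 92.9 CPM against 68.1, 145 and 182 CPM (-0.85 ± 0.17, adjusted p = 0.00557). Itga6, the laminin receptor chain used with beta 4 in hemidesmosomes, was higher, at 261, 378 and 396 CPM against 162, 256 and 336 CPM (0.59 ± 0.14, adjusted p = 0.0154). Cd44 and Fermt1, the epithelial kindlin, were higher too, and Cd151 and Parvb lower. Fermt1 stayed called only without S04, S09 or S12, and Cd151 lost its call without S01, S04, S06, S07, S13 or S14. With the threshold at 60 CPM 0 integrin and adhesion genes were higher and 2 lower, and Itga3 (adjusted p = 0.162), Itga6 (0.0954), Fermt1 (0.138) and Cd151 (0.481) were not called. Fermt1 was also lost in 6 other settings (0.0548 to 0.214), and Cd151 with no filter, with the library runs as a block and with continuous Lrig1 (0.0561 to 0.0672). With no tissue covariate 1 was higher and 4 lower, and at 100 CPM 4 basement membrane genes were lower. Lama3, Agrn and Itgb5 stayed called in all 29 settings.

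Of 15 genes of the fetal and regenerative epithelium 7 were lower and 0 higher (median log2 fold change -1.86). Cldn4, a tight junction protein, was at 6.44, 8.24 and 22.9 CPM in the high class and at 18.01, 49.6 and 211 CPM in the low class (-2.16 ± 0.35, adjusted p = 0.00137). Il33, an alarmin cytokine, was at 0.145, 1.55 and 3.57 CPM against 1.40, 15.2 and 47.8 CPM (-2.52 ± 0.57, adjusted p = 0.00988). Sprr1a, an envelope protein of stressed epithelium, had no count in 5 of the 6 high libraries, with 0.344 CPM in S07, and at 0.408, 2.63 and 9.66 CPM in the low class (adjusted p = 0.00189). Clu, a marker of revival stem cells, did not pass (-1.86 ± 1.16, adjusted p = 0.339). A threshold of 60 CPM left 1 of the 15 lower, and Il33 (adjusted p = 0.0985) and Sprr1a (0.272) were not called, while Cldn4 stayed called in all 29 settings.

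Of the markers of cells that the sort was to remove, Ptprc was lower in the high class and Pecam1 was not called. Epcam, the marker kept by the sort, was at 918, 1136 and 1250 CPM in the high class and at 604, 1304 and 1509 CPM in the low class (-0.12 ± 0.20, adjusted p = 0.769), and Pecam1, the gene of CD31, did not exceed 1.85 CPM in any library. Ptprc, which encodes CD45, was at 0, 0.503 and 0.757 CPM against 0.863, 6.30 and 46.0 CPM, with no overlap (-4.31 ± 0.93, adjusted p = 0.00778), and it was not called with the threshold at 60 CPM (adjusted p = 0.66). Ptprc was 1 of 7 leukocyte genes that could be tested. The other 6 were not called, and the median log2 fold change of the 7 was -0.08. DESeq2 and the fit with the library runs as a block each called 1 of the 7 higher and 1 lower. The 20 leukocyte markers summed to 8.66 to 16.96 CPM in the high class, with 8 to 12 at 0, and to 16.5 to 58.6 CPM in the low class, with 7 to 16 at 0. The T cell gene Cd3e, the B cell gene Cd79a and the macrophage gene Adgre1 were below the filter on low counts. Endothelial markers, none of 6 called, summed to 2.72 to 20.7 CPM in the high class and to 2.88 to 217 CPM in the low class, with Cdh5, a junction protein of endothelium, at 154 CPM in S11. Stromal markers, 1 of 5 lower, summed to 14.7 to 50.02 CPM and to 16.7 to 373 CPM, the last again in S11, and Col1a1, Col3a1 and Dcn were below the filter. Fn1, the fibronectin gene, was that 1 (-2.42 ± 0.75, adjusted p = 0.0494). It was at 20.4 and 28.3 CPM in the high tumor libraries, at 36.5 to 244 CPM in the low tumor libraries and at 7.03 CPM or less in normal ones, and with 1 library left out only the fits without S01 or S12 still called it. It was also lost in 7 other settings (0.0504 to 0.259). Ret, a receptor also found on enteric neurons, was lower (-1.67 ± 0.40, adjusted p = 0.0135), 1 of 2 neural and glial markers that could be tested, and not called with the threshold at 100 CPM (0.0891), and no erythroid marker passed the filter. Of 13 immediate early genes, which respond to stress and dissociation, 1 was higher, beside 5.9% of all genes tested. It was Ier2 (0.47 ± 0.13, adjusted p = 0.0257), and it was not called without S01, S02 or S07, with continuous Lrig1 (0.1285) or with the threshold at 100 CPM (0.466) or 60 CPM (0.0793). The part of such cells in the tuft, matrix and regenerative results was not tested.

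Among all genes, the 10 largest higher folds allowed by the rule for naming genes were those of 5 defensins (Defa30, Defa38, Defa39, Defa17 and Defa24), of Nusap1, Ang4, Itln1 and Mptx2, and of Prelp. Prelp, a small leucine-rich matrix proteoglycan, was at 10.7, 66.6 and 93.0 CPM in the high class and at 0.242, 3.87 and 9.15 CPM in the low class (4.10 ± 0.52, adjusted p = 0.000347). The 10 largest lower folds were those of Dclk1, Nts, Ghrl, Cck, Lama3, Matk, Gprc5c, Mgat4c, Slc30a10 and Slc9a3. Matk, a kinase that acts on Src family kinases, was at 0.476, 1.16 and 2.59 CPM against 10.9, 24.6 and 62.3 CPM (-4.33 ± 0.50, adjusted p = 0.000237). Slc9a3, the sodium and proton exchanger of the brush border, was at 8.71, 15.1 and 56.7 CPM against 59.5, 109 and 220 CPM (-2.33 ± 0.45, adjusted p = 0.00423). Prelp, Matk and Slc9a3 did not overlap between the classes. The rule named only genes without overlap within either tissue, so this adds no support. In the fit at 60 CPM the higher folds of Nusap1, Mptx2 and 4 of the 5 defensins (Defa24, Defa30, Defa38 and Defa39) were not called, nor were the lower folds of Dclk1, Nts, Cck, Matk (adjusted p = 0.269), Gprc5c (0.195), Mgat4c (0.263) and Slc30a10 (0.0587). At 100 CPM the same 4 defensins and Ang4 were not called (0.0623 to 0.106).

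The classes were next compared within each tissue, since the high class holds more normal than tumor libraries. In normal tissue (4 against 4) 581 genes were higher (4.02% of those tested) and 391 lower (2.7%), together 6.72%, and in tumors (2 against 4) 35 were higher (0.242%) and 18 lower (0.124%), together 0.366%. All 44 genes called in both tissues had the same sign, which is 44 of the 972 called in normal tissue and of the 53 called in tumors. In tumors the calls included 4 replication genes, 5 mitosis genes and 3 stem genes, the last being Cdk6 (2.08 ± 0.28, adjusted p = 0.0153), Cdca7 (1.66 ± 0.29, adjusted p = 0.0309) and Rgmb (1.98 ± 0.32, adjusted p = 0.0265). Of the 53 tumor calls 0 were left in edgeR with the library runs as a block, with the threshold at 100 CPM or with it at 60 CPM. The adjusted p in these 3 fits was 0.0644, 0.118 and 0.181 for Cdk6, 0.181, 0.120 and 0.267 for Cdca7, and 0.0603, 0.104 and 0.163 for Rgmb, all with positive folds, and 1320, 1972 and 2050 genes had an unadjusted p under 0.05. The threshold at 100 CPM moves only S09, a normal library, so the tumor groups stayed the same. The tumor folds of Cdk6, Cdca7 and Rgmb were also the same there, with larger SE (0.45, 0.39 and 0.41). All groups share 1 estimate of the spread, and the normal libraries enter it. In normal tissue 17 of 20 stem genes were higher with a median of 2.21, beside a median of 0.44 in tumors. Olfm4 was at 916 to 4782 CPM in the high normal libraries and 15.4 to 213 CPM in the low ones (4.74 ± 1.31, adjusted p = 0.0457). The tumor libraries held 4383 CPM in S07 and 4214 CPM in S04 of the high class, and 125, 7.08, 137 and 1993 CPM in S08, S11, S03 and S12 of the low class (2.93 ± 1.33, adjusted p = 0.335). Lgr5 differed in normal tissue (3.62 ± 0.77, adjusted p = 0.0155) and not past the threshold in tumors (0.01 ± 0.84, adjusted p = 0.996).

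The difference between the tissues was tested itself. The interaction of class and tissue was called for 0 genes higher and 0 lower in edgeR, with 674 genes at an unadjusted p under 0.05 (4.66% of those tested), and DESeq2 called 2 and 4. So no difference between tissues is shown for Lgr5 or the other genes above. The counts within a tissue depended on single libraries, those of the other tissue among them. All groups share 1 estimate of the spread. Leaving out the tumor libraries S12, S04 or S07 therefore moves the normal counts though the normal groups stay the same. In normal tissue the counts were 1582 higher and 1313 lower without S12, 231 to 322 and 76 to 199 without 1 of the normal libraries other than S09, and 379 or 380 and 248 or 250 without S04 or S07. In tumors they were 550 and 281 without S12, 1 and 1 without S04, 4 and 0 without S07 (these 2 leave the high class with 1 tumor library, assumed to vary like the others), and 7 to 62 and 6 to 27 without another library.

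The same libraries were also compared by the sort label, the grouping that the labels give and that the class did not use. With tissue as a covariate, edgeR called 0 genes higher and 0 lower in libraries labelled Lrig1-high, with 448 genes at an unadjusted p under 0.05 (3.1% of those tested). DESeq2 called 0 and 0, and limma-voom with sample weights called 1682 higher and 2183 lower. The sort label gave 0 calls in edgeR in each of the gene lists. Of the 853 genes higher in the high class, 836 had a positive fold by the label, and of the 901 lower genes 805 had a negative one, but 9 of 14 libraries have the same class and label, so the comparisons share most of their groups. By the label the median log2 fold change of the stem list was 0.70 beside 1.66 by the class, the Paneth list 1.0 beside 3.91, the replication list 0.63 beside 1.5 and the tuft list -0.18 beside -3.17. Olfm4 was at 2.05 ± 1.31 by the label (adjusted p = 0.95) and Dclk1 at -0.28 ± 0.95 (adjusted p = 0.979). Lama3 had a fold of -1.71 ± 0.70 (unadjusted p = 0.0282, adjusted p = 0.95).

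**Figure D5:**
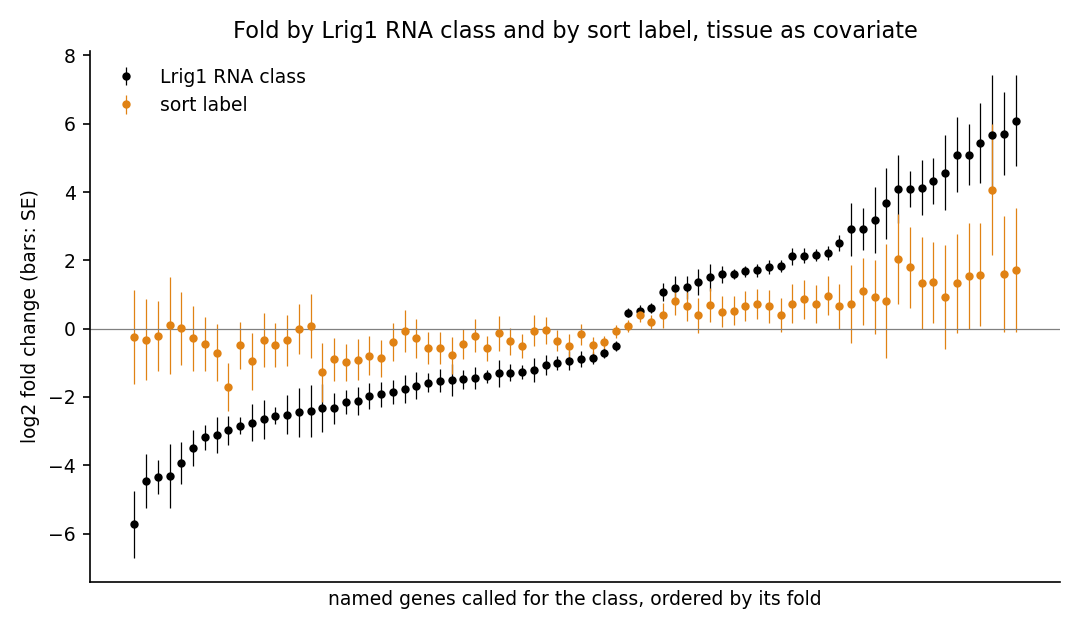
Log2 fold change (y axis, bars the SE) of the 76 named genes called for the class, ordered by that fold, for high against low Lrig1 RNA class (black) and for libraries labelled Lrig1-high against Lrig1-low (orange). For Dclk1 the values are -3.48 and -0.28, and for Olfm4 4.08 and 2.05.

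The 5 libraries whose class differs from their label were placed by other genes as follows. S07, labelled tumor Lrig1-low, summed to 9535 CPM of stem genes and 81.2 CPM of tuft genes, within the 3959 to 10090 and 25.1 to 84.0 CPM of the high class. S09, labelled normal Lrig1-low, had 3959 CPM of stem genes and 1399 CPM of replication genes, the lowest sums of the high class, and 6934 CPM of enterocyte genes, its highest. S10, labelled normal Lrig1-high, had 402 CPM of replication genes, the lowest of all 14 libraries, and 14070 CPM of enterocyte genes, the highest. S08, labelled tumor Lrig1-high, had 1525 CPM of tuft genes, the highest of all. S12, labelled tumor Lrig1-high and the library with the most mitochondrial RNA, had 7346 CPM of stem genes and 2697 CPM of Paneth genes, both the highest of the low class, with 997 CPM of replication genes and 73.7 CPM of tuft genes. Scaled by TMM, Lrig1 was at 72.4 CPM in S12 and 85.6 CPM in S09, and the classes were the same. Without S08 and S09, the libraries on either side of the threshold, 908 genes were higher and 857 lower. Restricted to the 9 libraries with the same class and label, 1650 were higher and 1686 lower, of which 804 and 817 were also called with all 14.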

How the data were processed

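The deposited values are raw counts per gene in 15 libraries of sorted mouse colonic cells. Per the file headers the authors counted with featureCounts 1.5.3 on exons in the reverse strand setting, with no option for pairs, so each end of a pair is a count, and none for reads that map to several places. Per the submitters' processing notes, Trimmomatic, HISAT2, Subread and mm10 were used. Libraries came from very small inputs of total RNA with rRNA removed, per the labels' protocols.

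Symbols came from RefSeq for 25275 of 27179 genes and from GENCODE for 17. Libraries with over 1000 counts were split at 80 CPM of Lrig1. EdgeR 4.0.16 (R 4.3.3) was run with TMM, filterByExpr, glmQLFit and glmQLFTest, and tissue as covariate. P-values were adjusted by Benjamini and Hochberg over every tested gene, and calls were made at an adjusted p under 0.05. An SE is the absolute log2 fold change over the square root of F, and CPM values of genes are TMM-scaled unless the column total is named. Lrig1 stayed in the fit and out of the results. Library measures were compared with exact permutation tests. Alternatives used DESeq2 1.42.0 and limma 3.58.1, other filters, thresholds, covariates and library sets. The scripts were tested on simulated counts for the comparison over both tissues. There 29 of 100 genes changed 2-fold and 80 of 100 changed 4-fold were called, with 6 false calls. A gene that did not pass can therefore still differ by about 2-fold.

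The members and gene lists were chosen with earlier results of these data known, including that stem, replication, mitosis, Paneth and tuft genes go with Lrig1, so those directions are not independent support. Genes were named by a rule: per direction the 10 largest folds among calls that average 10 CPM or more and whose classes are apart within both tissues, up to 3 calls per list and direction by adjusted p, and fixed markers. Smoc2, Slc12a2, Notch2, Nrarp, Notum, Chga, Gip, Tac1, Muc2, Clu, Bmi1, Hopx, Spred3, Parvb, Apoa4 and the motif windows were chosen after their values were seen.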

Additional observations from a re-analysis of the deposited data

Results flagged for a closer look

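Among 184 groups of libraries (87 named genes and 5 library measures in each class), 29 held a library far from the others by Dixon's test on log2(CPM + 1) or on the measure, where chance gives about 1 in 20. In the high class 11 of these were S09, the library nearest to the threshold. It was lowest for Axin2 (137.9 CPM), Cdca7 (90.8), Dnmt1 (188.0), Itga6 (261.1), Lig1 (80.4), Mcm6 (135.6), Olfm4 (915.8) and Prelp (10.7), and highest for Apob (1066), Lrig3 (88.0) and Rbp2 (193.1). S14 was highest for Aurkb (66.7 CPM) and Nusap1 (10760), and S07 was lowest for Smad6 (2.93) and highest for Sprr1a (0.344).

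In the low class 11 were S12. It was highest for Defa17 (7.77 CPM), Igf1r (103.4), Lrig2 (61.3), Nusap1 (86.0), Xist (4078), the share of mitochondrial rRNA (42.8%) and that of other mitochondrial RNA (6.69%), and lowest for Egfr (2.59), Itga3 (68.1), Siglecf (0.648) and genes with at least 10 counts (10320). The others were S11 for Dll3 (0.369 CPM), S10 for Dnmt1 (59.8) and S13 for Erbb3 (9184).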

How the results depend on the processing

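The labels pair no libraries, since each library has a number of its own. The titles run through the 4 sorted groups in the same order, and these runs of consecutive numbers (S01 to S04 and so on), whose meaning the labels do not give, were fitted as a block. The block gave 785 higher and 793 lower genes over both tissues and 457 and 317 in normal tissue. None of the 76 named genes called reversed, and 24 stayed called in all 29 settings. Thresholds at 70 CPM or on TMM-scaled CPM gave the same classes. The recounts of calls per gene list under other settings were added after seeing the data. Over both tissues (853 higher, 901 lower) DESeq2 called 1563 lower, limma-voom 2649 and 3045, libraries with the same label and class 1650 and 1686, and a threshold of 60 CPM, chosen after seeing the data, 341 and 281. Without 1 library the counts were 623 to 2086 and 500 to 1865. In normal tissue (581, 391) DESeq2 gave 927 and 959, limma-voom 2516 and 2594, a threshold of 100 CPM 242 and 246, the same-label libraries 1825 and 1622 and 60 CPM 343 and 153, with 231 to 1582 and 76 to 1313 without 1 library. In tumors (35, 18) the values were 276 and 433, 427 and 397, 0 and 0, 256 and 94, and 0 and 0 in that order, 0 and 0 with the block, 22 and 11 without S08 and S09, and 1 to 550 and 0 to 281 without 1 library. The interaction was 2 and 4 in DESeq2, 3 higher in the same-label libraries and 0 to 3 without 1 library. By the sort label limma-voom called 1682 and 2183. Because all groups share 1 estimate of the spread, a change to libraries of 1 tissue can also move the counts within the other. The cause of these moves was otherwise not tested.

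Some small folds changed sign. Lrig3 was at -0.12 with limma-voom, -0.21 at 100 CPM, -0.043 with continuous Lrig1, -0.036 in the same-label libraries, -0.019 at 60 CPM, -0.13 without S08 and S09, and -0.089 to 0.16 without 1 library, negative without S04, S09 or S11. Pecam1 was at -0.30, -1.01, -0.27, -1.15, -0.25 and -0.80 in the same 6 settings, and at -0.61 to 1.06 without 1 library, negative without S05, S07 or S09. The values with continuous Lrig1 are per doubling of Lrig1 RNA and are not on the scale of high against low class. Epcam was at 0.00071 without S08 and S09, and Xist at -0.041 with no tissue covariate and -0.0087 at 60 CPM. Genes with at least 10 counts differed by -261 in the same-label libraries and by -109.6 (without S12) to 348 without 1 library. The ribosomal protein difference, 1.05 percentage points, was 1.04, 0.863 and 0.852 in the same-label libraries, at 100 CPM and at 60 CPM, with adjusted exact permutation p of 0.119, 0.0999 and 0.0728. Depth limits low genes: S08 held the fewest counts, 9508505.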

Other observations

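Some genes stood at a high level in 1 library alone. At 500 CPM or more and at least 20 times the next library there were 62 such genes, of which S14 held 30, S13 13, S03 8, S04 and S10 3 each, S06 and S11 2 each and S02 1, and the other libraries 0. Camk2d, a calcium-dependent kinase, was at 11360 CPM in S14 and at 160.8 CPM or less elsewhere. Fam114a1 was at 11110 CPM in S13 and at 37.1 CPM or less elsewhere, and Mycbp2, a ubiquitin ligase, at 10540 CPM in S04 and at 133.3 CPM or less elsewhere. Erbb3 in S13 and Nusap1 in S14, described above, are 2 of the 62. Rpl35, at 8379 CPM in S14 of the high class, and Rpl31, at 6072 CPM in S03 of the low class, are among them too. Both count toward the share of ribosomal protein genes given above. That share differed between the classes by 0.825 percentage points without S14, and the part of these 2 genes in it was not tested. These genes were chosen after their values were seen.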
